A study of Mus musculus with 6 samples.

Results

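The expression of 41 DNA repair genes was followed in bone marrow cells of old and young mice. The genes form 7 groups, namely homologous recombination (7 genes), the Fanconi anaemia pathway (4), end joining (6), mismatch repair (3), nucleotide excision repair (7), base excision repair (7), and damage sensing with its checkpoint (7). They were chosen by name, though with earlier results of these data known. Each was read from non-control probes whose accession is a RefSeq transcript of the gene. All 41 were found among the 37163 gene names or identifiers on the array, and where a gene had several probes the brightest one on average stood for it. The study compared 3 samples of mice aged 24 months, called old, with 3 samples of mice aged 3 months, called young. Both groups were C57BL/6 mice, and total RNA was hybridised to 1-colour Agilent arrays, with 1 array per sample. The labels call the sorted cells mesenchymal stem cells of the bone marrow, without naming the sort markers or saying whether each sample is a different animal or pool of animals. The p-values therefore measure the spread between these samples, which may be technical in part.

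DNA is damaged continuously by water, oxygen, radiation and replication itself, and each kind of lesion has its own repair route. Base excision repair replaces single altered bases, nucleotide excision repair cuts out bulky distortions, and mismatch repair corrects copying errors. Breaks through both strands are copied back from the sister chromatid by homologous recombination or rejoined directly by end joining, while Fanconi anaemia proteins unhook crosslinks between the strands. Inherited loss of several of these genes is known to impair blood formation, and the Fanconi genes are named for such a marrow failure.

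The labelled cell type was checked first. Of 21 genes of mesenchymal stroma, 13 reached the detection needed for a test, and Pdgfrb, Prrx1, Foxc1, Twist1 and Itgav were well above background on none of the arrays. Pdgfra was well above background on 1 old array and on no young array. Only 9 of the 21 stroma genes were well above background on all 6 arrays. In contrast, this held for 18 of 19 leukocyte genes and for 17 of 20 erythroid genes, of which 18 were on the array. Processed signals had a 75th percentile of 206 to 285 on the old arrays and 277 to 349 on the young arrays, and 51.0% to 53.5% of the 55681 probes were well above background on the old arrays, against 55.3% to 60.0% on the young arrays. Young replicate 3 lay apart from the other young samples on the first principal component, at 59.8 against 26.2 and 30.1. Old replicate 1 lay apart from the other old samples, at -23.2 against -43.4 and -49.5, and was the highest old sample in 21 of the 41 repair genes. All arrays were on 1 slide, each age filling its own row, so that position on the slide and age cannot be told apart. In such bulk samples fewer cells of a type and less RNA per cell cannot be told apart either.

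None of the 41 repair genes passed the test between the ages in the main setting. With limma and Benjamini-Hochberg adjustment over 23301 tested genes, 0 of 41 had an adjusted p below 0.05, against 8.0% of all tested genes (1864, of which 924 were higher and 940 lower in old samples). All 41 were well above background on all 6 arrays, so none was lost to low signal. The log2 difference, old minus young, ran from -0.59 for Xpc, a damage recognition gene, to 0.28 for Xrcc5, which encodes a subunit of the break-binding Ku dimer. Its median over the 41 genes was -0.05, against 0.07 over all tested genes, and 25 genes had a negative and 16 a positive difference. Adjusted p-values ran from 0.0708 to 0.947. At an unadjusted limma p below 0.05 there were 7 of 41 genes, or 17.1%, against 27.8% of all tested genes. With the deposited table the higher and lower calls among all genes were 598 and 935, and with normexp background correction they were 1805 and 1105. Taken in either direction, this was 7.11% of 21548 tested genes with the deposited table and 12.5% of 23301 with normexp. Among the repair genes Xpc, Ercc3 and Chek2 passed as lower in old samples with normexp, at limma adjusted p of 0.0331, 0.0484 and 0.0348, and the chosen Xrcc2 probe passed as lower with the deposited table (0.0480).

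**Figure D1:**
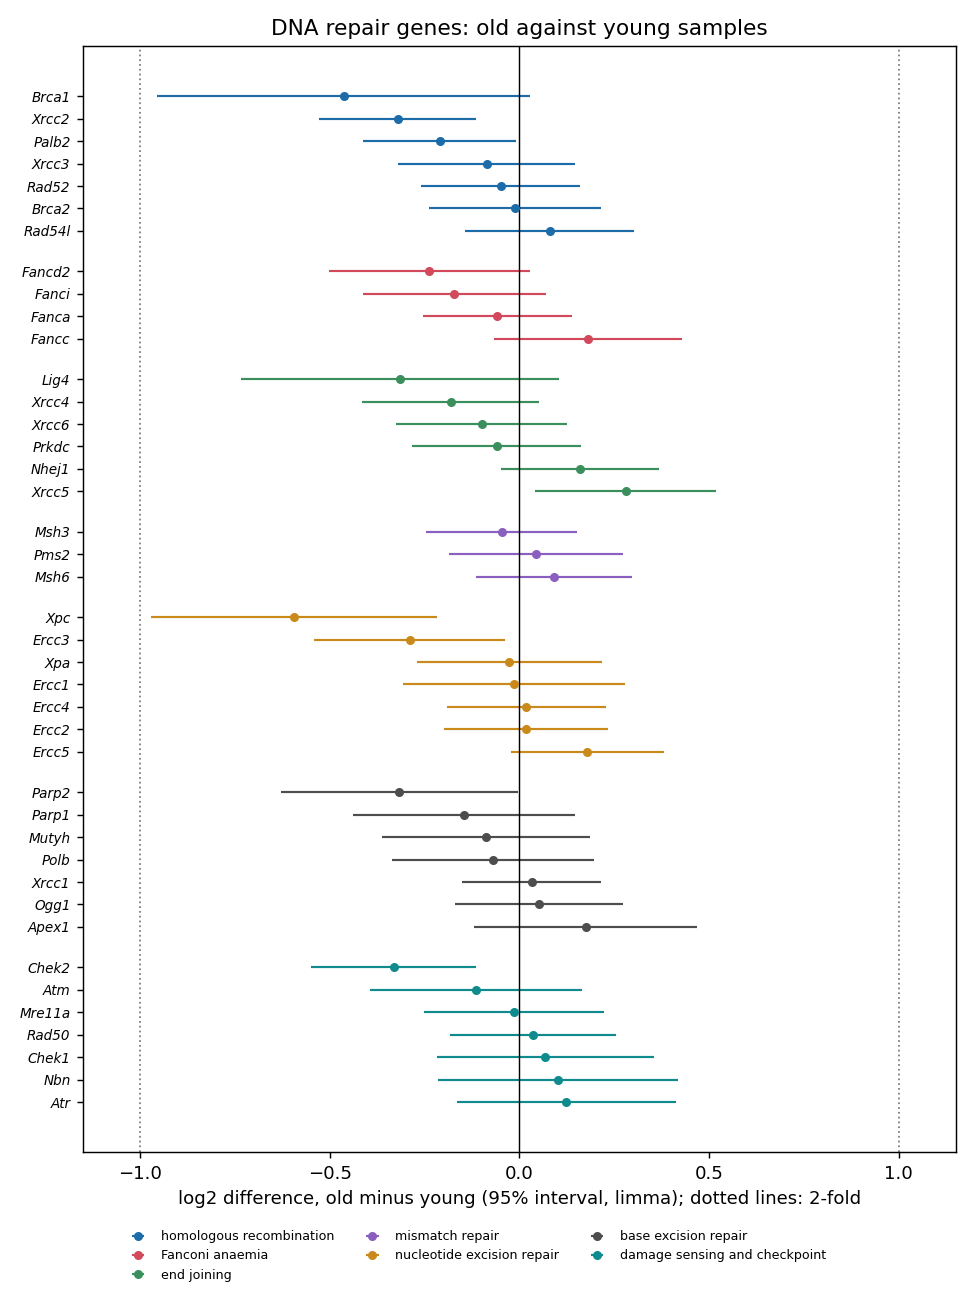
Log2 difference, old minus young, of each of the 41 repair genes (point) with its 95% interval from limma (bar), coloured by pathway. All 41 intervals, each of the chosen probe, lie between the dotted lines that mark a 2-fold difference, and the point farthest from 0 is Xpc at -0.59.

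The spread between samples bounded the difference of each chosen probe, though not that of every probe of a gene. For all 41 chosen probes the 95% interval of the difference, unadjusted for the number of genes, lay inside a 2-fold change in either direction. This held for 82.2% of all tested genes and for 88.3% of those well above background on all 6 arrays. A second probe of Xrcc2, described below, differed by 0.68, outside the interval of -0.53 to -0.11 of the chosen one. Further probes of Fancc (-0.62), Atm (0.35), Rad50 (0.46) and Msh3 (0.46 and -0.35) also lay outside the intervals of their chosen probes. Those of Palb2, Pms2 and Xpa lay inside. For 37 of the 41 the interval also lay inside a 1.5-fold change, against 56.1% of all tested genes and 62.9% of those well above background on all 6 arrays. The 4 genes with wider bounds were Brca1, Lig4, Xpc and Parp2, and the lower ends of their intervals were -0.96, -0.73, -0.97 and -0.63 log2 units. The median SD between samples of a group was 0.10 log2 units for the repair genes and 0.16 for all tested genes. It was 0.15 for those well above background on all 6 arrays. The median size of the difference, whatever its sign, was 0.10 for the repair genes, 0.19 for all tested genes and 0.18 for those above background on all 6 arrays.

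The old and young samples did not overlap in 12 of the 41 genes, a share of 29.3%, against 36.0% of all tested genes. By the chosen probe, every old value lay below every young value in 8 genes, against a background of 13.1%. These were Palb2, Xrcc2, Fancd2, Xrcc4, Xpc, Ercc3, Parp2 and Chek2, though a second Xrcc2 probe lay the other way. In 4 genes, Fancc, Xrcc5, Nhej1 and Ercc5, every old value of the chosen probe lay above every young value, against 22.9% of all tested genes. A further Fancc probe lay the other way, also without overlap. None of these 12 passed the adjusted test.

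Promoter sequences were set beside the expression data to see what the repair genes share. RefSeq windows of 300 bases around the start (GRCm38.p6) were at hand for 33 of the 41 genes, the others being Xrcc2, Fancd2, Prkdc, Xpc, Ercc3, Polb, Rad50 and Nbn. A motif of E2F, the factor family that drives genes of the replication phase, was searched on both strands as TTTCCCGC, TTTCGCGC, TTTGCCGC or TTTGGCGC. Exact copies alone were counted, so a window without this motif may still hold a variant of it. It was found in 5 of the 33 genes (15.2%), namely Brca2, Chek2, Msh3, Msh6 and Xrcc6, against 3.29% of 17491 protein-coding genes and 2.60% of all 27025 genes with a window. The CCAAT box, searched as CCAAT, was found in 63.6% of the repair genes and 42.3% of protein-coding genes. The GC box, searched as GGGCGG, was found in 69.7% and 49.2%. The TATA box (TATAAA) was found in 6.06% of the repair genes and 14.8% of protein-coding genes, and the CHR element (TTTGAA) of cell cycle genes in 3.03% and 18.5%. The windows also differed in base composition. Their median was 23 CG steps and 59.2% G or C for the repair genes, against 13 and 56.3% for protein-coding genes. The part of base composition in the motif shares was not tested. No E2F match overlapped any of the other motifs, and the 2 matches in Msh3 overlap each other. The log2 differences of the 5 genes with an E2F match ran from -0.33 to 0.09, and those of the 28 without one from -0.46 to 0.28. Of the 5 windows, 3 are shown, those of the gene with the lowest difference (Chek2, chr5:110839733-110840032, plus strand, -0.33), the one nearest 0 (Brca2, chr5:150522371-150522670, plus strand, -0.01) and the highest (Msh6, chr17:87974800-87975099, plus strand, 0.09). Capitals mark the E2F match, which in Chek2 and Brca2 is on the opposite strand.
Chek2: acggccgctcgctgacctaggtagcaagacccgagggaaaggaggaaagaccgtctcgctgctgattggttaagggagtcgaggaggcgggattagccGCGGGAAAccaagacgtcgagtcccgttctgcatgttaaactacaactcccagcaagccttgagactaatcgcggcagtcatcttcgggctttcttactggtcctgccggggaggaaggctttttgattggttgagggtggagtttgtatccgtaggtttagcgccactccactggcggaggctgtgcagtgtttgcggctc
Brca2: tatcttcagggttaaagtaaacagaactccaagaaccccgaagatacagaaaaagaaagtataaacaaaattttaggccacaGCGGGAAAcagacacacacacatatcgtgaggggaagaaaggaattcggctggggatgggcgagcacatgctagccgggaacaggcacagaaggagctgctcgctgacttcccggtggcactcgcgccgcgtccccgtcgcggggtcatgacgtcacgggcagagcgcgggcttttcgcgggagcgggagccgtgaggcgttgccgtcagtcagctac
Msh6: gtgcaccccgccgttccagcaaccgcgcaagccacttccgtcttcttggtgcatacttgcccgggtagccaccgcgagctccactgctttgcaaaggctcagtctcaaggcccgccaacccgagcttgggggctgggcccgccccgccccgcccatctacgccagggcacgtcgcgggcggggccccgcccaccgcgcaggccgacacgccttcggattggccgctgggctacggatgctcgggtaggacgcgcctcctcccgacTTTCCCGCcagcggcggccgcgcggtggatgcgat

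Values are given below as log2 signal relative to the 75th percentile of the array, in the order of replicates 1 to 3, and each difference is old minus young with its limma SE (n = 3 and 3). In homologous recombination the difference farthest from 0 was that of Brca1 (NM_009764), a ubiquitin ligase that directs breaks into this route. Its signal was -1.94, -2.33 and -2.47 in old samples and -2.09, -1.76 and -1.49 in young samples. The groups overlapped through old replicate 1, and the difference was -0.46 ± 0.20 (limma adjusted p = 0.200). Brca2 (NM_009765), which loads the recombinase onto single-stranded DNA, was 3.81, 3.87 and 4.03 in old samples and 3.95, 3.94 and 3.86 in young samples. Its difference of -0.01 ± 0.09 was the nearest to 0 of the 7. Xrcc2 (NM_020570), a recombinase paralogue, was -0.01, -0.09 and -0.12 in old samples and 0.33, 0.17 and 0.24 in young samples. The groups did not overlap, and the difference was -0.32 ± 0.09 (limma adjusted p = 0.0740). For Palb2, the bridge between the Brca1 and Brca2 proteins, the difference was -0.21 ± 0.08 (limma adjusted p = 0.166), also without overlap. Xrcc3, a further paralogue, Rad52, an annealing protein, and Rad54l, a motor of strand exchange, differed by -0.09 ± 0.10, -0.05 ± 0.09 and 0.08 ± 0.09.

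The 4 Fanconi anaemia genes comprise 2 members of the core ubiquitin ligase, Fanca and Fancc, and its paired substrates, Fancd2 and Fanci. Fancd2 (NM_001033244) was 0.33, 0.11 and 0.28 in old samples and 0.36, 0.46 and 0.62 in young samples. All old values lay below the young ones, and the difference was -0.24 ± 0.11 (limma adjusted p = 0.217). Its partner Fanci differed by -0.17 ± 0.10 (limma adjusted p = 0.315). Fanca (NM_016925) was 4.25, 4.20 and 4.14 in old samples and 4.28, 4.30 and 4.18 in young samples, overlapping groups with a difference of -0.06 ± 0.08. With the chosen probe Fancc differed by 0.18 ± 0.10 (limma adjusted p = 0.300). The groups were barely apart in that probe, with a lowest old value of 1.060 and a highest young value of 1.057. A further Fancc probe, described below, lay the other way. By the chosen probes the substrates and the ligase subunits thus gave 3 negative differences and 1 positive one, none past the threshold.

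In end joining the subunits of the Ku dimer had differences of opposite sign. Xrcc5 (NM_009533) was 2.87, 2.93 and 2.90 in old samples and 2.59, 2.77 and 2.49 in young samples. Every old value was the higher, by 0.28 ± 0.10 in the mean (limma adjusted p = 0.133). Xrcc6 (NM_010247), the other subunit, was 5.83, 5.89 and 5.69 in old samples and 5.94, 5.82 and 5.95 in young samples, with overlap and a difference of -0.10 ± 0.09. Whether the 2 subunits differ from each other was not tested. Lig4 (NM_176953), the ligase of the pathway, was -0.72, -0.64 and -1.05 in old samples and -0.29, -0.78 and -0.39 in young samples. It had the largest difference of the 6 genes, -0.31 ± 0.17, and overlapping groups (limma adjusted p = 0.292). Its binding partner Xrcc4 differed by -0.18 ± 0.10 and Nhej1, which helps to align the ends, by 0.16 ± 0.09, both without overlap and at limma adjusted p of 0.275 and 0.278. Prkdc (NM_011159), the kinase recruited by Ku, was 1.78, 1.62 and 1.57 in old samples and 1.74, 1.75 and 1.65 in young samples, a difference of -0.06 ± 0.09.

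Mismatch repair, the smallest group, had the narrowest range by the chosen probes, from -0.05 to 0.09. Msh6 (NM_010830), which recognises single mispairs, was 5.85, 5.79 and 5.88 in old samples and 5.66, 5.79 and 5.81 in young samples, a difference of 0.09 ± 0.08. Its sign turned with quantile normalization, cyclic loess, normexp and the deposited table. Pms2 (NM_008886), a nicking enzyme of the pathway, was 2.49, 2.26 and 2.47 in old samples and 2.36, 2.39 and 2.33 in young samples, a difference of 0.04 ± 0.09. Msh3, which recognises small loops, differed by -0.05 ± 0.08. The groups overlapped in the chosen probes of all 3 genes. Further probes of Msh3 differed by 0.46 and -0.35, the first without overlap, and that of Pms2 by -0.16.

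Nucleotide excision repair held the largest difference of the 41 genes. Xpc (NM_009531), which finds lesions across the genome, was 0.45, 0.36 and 0.20 in old samples and 0.65, 0.96 and 1.18 in young samples. All old values lay below the young ones, and the mean was 0.66 of the young level, a difference of -0.59 ± 0.15 with a 95% interval from -0.97 to -0.22 (limma adjusted p = 0.0708). Young replicate 3 had the highest Xpc signal, and without it the difference was -0.47 (limma adjusted p = 0.148). The leukocyte list was also highest in that sample, with a summed signal of 289 times the 75th percentile in it, 170 at the lowest young sample and 100 to 115 in old samples. The part of leukocytes in the Xpc value was not tested. Ercc3 (NM_133658), a helicase of the repair and transcription factor TFIIH, was 1.42, 1.33 and 1.41 in old samples and 1.51, 1.70 and 1.82 in young samples, without overlap and with a difference of -0.29 ± 0.10 (limma adjusted p = 0.139). Ercc2, the other TFIIH helicase, differed by 0.02 ± 0.09. Ercc1 (NM_007948) was 0.75, 0.68 and 0.66 in old samples and 0.48, 0.87 and 0.78 in young samples. It and its nuclease partner Ercc4 differed by -0.02 ± 0.12 and 0.02 ± 0.09, and the lesion verifier Xpa by -0.03 ± 0.10. Ercc5, the second nuclease of the incision, differed by 0.18 ± 0.08 (limma adjusted p = 0.221), with every old value above the young ones.

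In base excision repair the lowest difference was that of Parp2 (NM_009632), a sensor of strand breaks that makes poly(ADP-ribose). It was 1.92, 1.68 and 1.49 in old samples and 1.94, 2.01 and 2.09 in young samples. The groups did not overlap, although old replicate 1 was close to the lowest young sample, and the difference was -0.32 ± 0.13 (limma adjusted p = 0.177). Parp1, its more abundant relative in most cells, differed by -0.15 ± 0.12 with overlap. Xrcc1 (NM_009532), the scaffold of the pathway, was 4.33, 4.28 and 4.25 in old samples and 4.26, 4.29 and 4.22 in young samples, a difference of 0.03 ± 0.08 whose sign turned under the same 4 settings as that of Msh6. Ogg1, which removes oxidised guanine, and Mutyh, which removes adenine paired with it, differed by 0.05 ± 0.09 and -0.09 ± 0.11. The endonuclease gene Apex1 differed by 0.17 ± 0.12 and the polymerase gene Polb by -0.07 ± 0.11.

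Among sensors and checkpoint kinases, Chek2 (NM_016681) stood lowest. This kinase, activated by Atm after double-strand breaks, was 0.63, 0.43 and 0.54 in old samples and 0.81, 0.87 and 0.92 in young samples. The groups did not overlap, and the difference was -0.33 ± 0.09 (limma adjusted p = 0.0769). Chek1, the kinase under Atr, differed by 0.07 ± 0.12, and the upstream kinases Atm and Atr by -0.11 ± 0.12 and 0.12 ± 0.12. By the chosen probes, the groups overlapped for all 3 subunits of the complex that first binds broken ends. Mre11a (NM_018736) was 3.89, 3.83 and 4.09 in old samples and 3.94, 3.99 and 3.93 in young samples, a difference of -0.01 ± 0.10. Rad50 and Nbn differed by 0.04 ± 0.09 and 0.10 ± 0.13. In the further probes of Rad50 and Atm every old value lay above every young value. Those probes differed by 0.46 ± 0.13 and 0.35 ± 0.10, and neither passed.

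**Figure D2:**
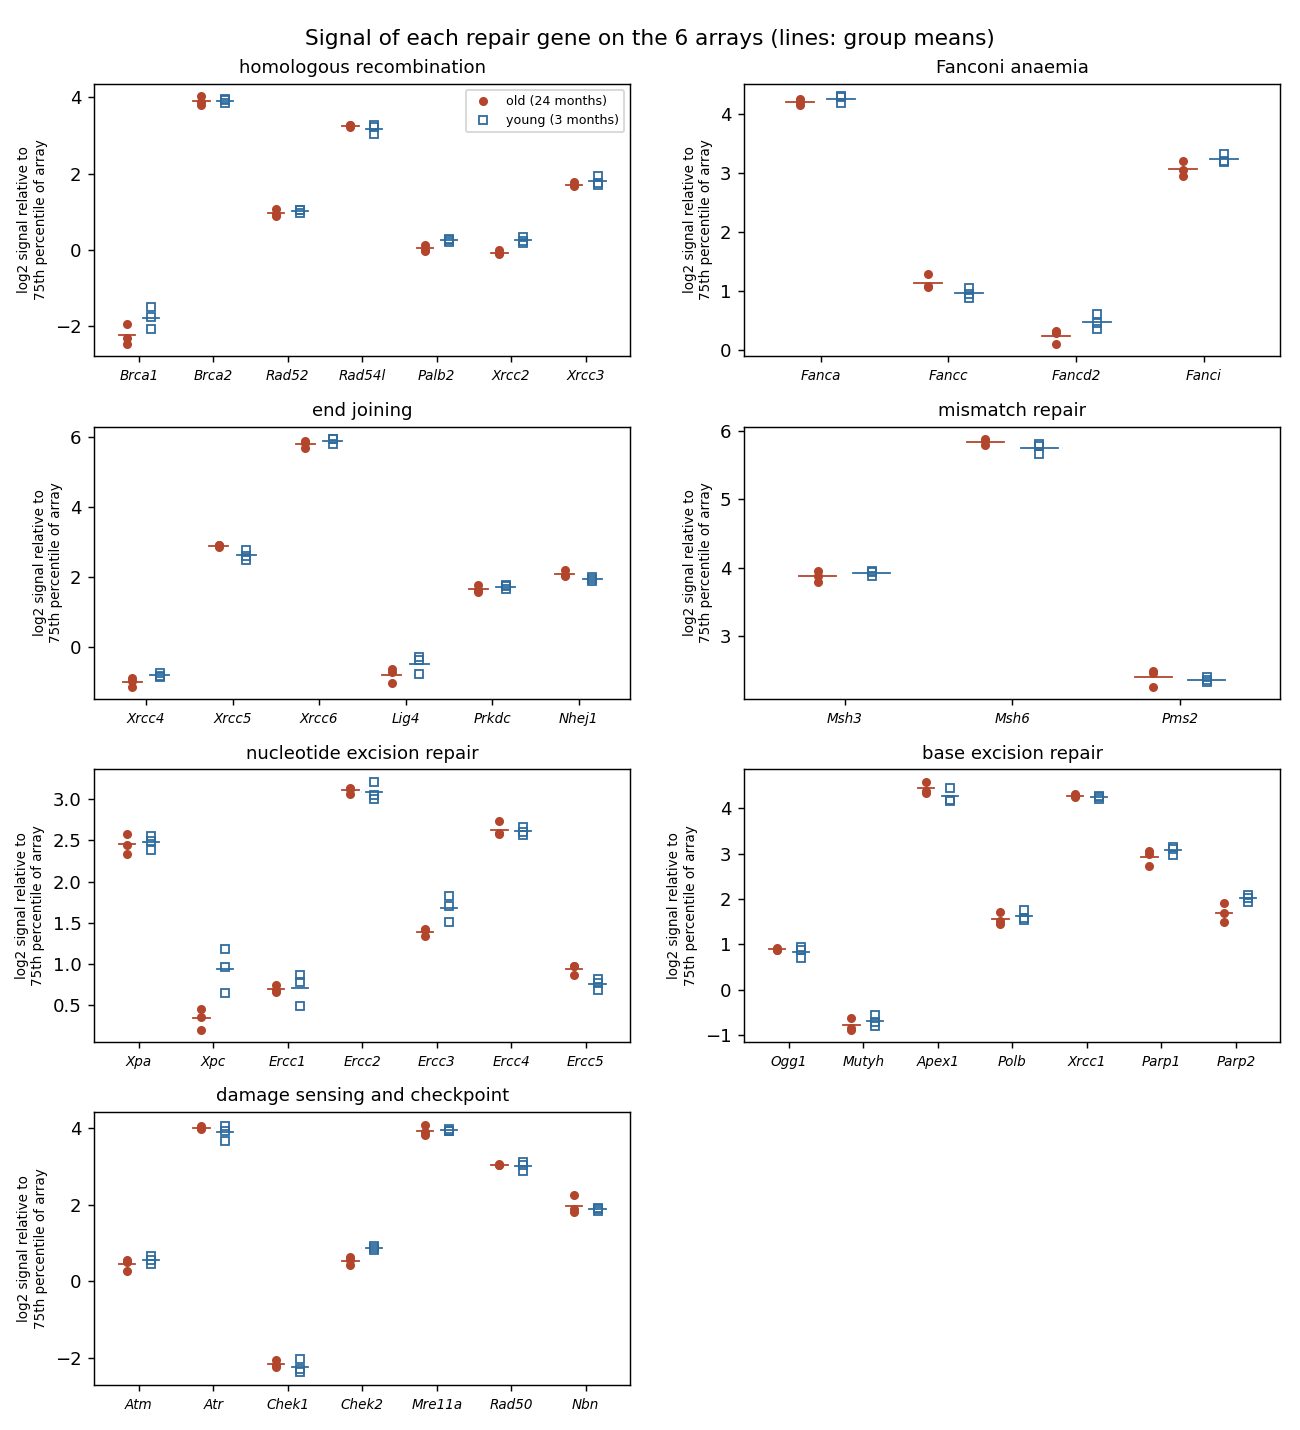
Log2 signal relative to the 75th percentile of the array for each repair gene, by pathway, with old samples as filled circles on the left, young samples as open squares on the right and group means as lines. Old points lie below the young points in Xpc, Chek2 and Ercc3 and above them in Xrcc5, while most genes overlap.

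Further probes did not always follow the probe that stood for the gene. Of the 41 genes, 8 had more than 1 probe, with 9 further probes in all, each well above background on all 6 arrays. The sign was that of the chosen probe for 3 of the 9. Xrcc2 had a second probe to the same transcript, with -0.08, -0.13 and 0.18 in old samples and -0.63, -0.53 and -0.91 in young samples. This probe was higher in old samples by 0.68 ± 0.14 (limma adjusted p = 0.0438 in a fit over 31323 probes, 7.79% of which passed), whereas the chosen one differed by -0.32. Both Xrcc2 probes had groups that did not overlap, in opposite directions, so the sign given for Xrcc2 is that of the chosen probe and not of the gene. The other 8 did not pass. Fancc differed by 0.18 with the chosen probe and by -0.62 ± 0.18 with a probe to another of its transcripts (limma adjusted p = 0.0941). Both Fancc probes had groups that did not overlap, in opposite directions, so the sign given for Fancc is also that of the chosen probe. The further probe of Atm differed by 0.35 ± 0.10 and that of Rad50 by 0.46 ± 0.13, both without overlap, against -0.11 and 0.04 with the chosen ones. Msh3 had 2 further probes, at 0.46 ± 0.15 without overlap and at -0.35 ± 0.16 with overlap. The further probes of Palb2, Pms2 and Xpa differed by -0.28, -0.16 and 0.15.

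**Figure D3:**
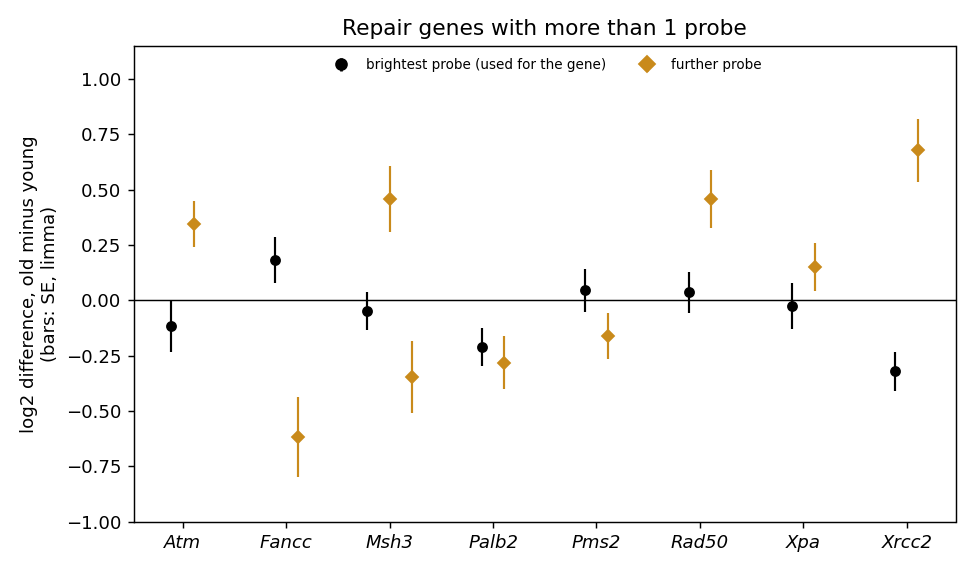
Log2 difference, old minus young, for every probe of the 8 repair genes with more than 1 probe, with the limma SE as bars, the chosen probe as a black circle and further probes as diamonds. The 2 Xrcc2 probes lie at -0.32 and 0.68.

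A wider list of 114 genes of the same pathways, of translesion synthesis and of direct reversal was examined in the same fit. Of these, 112 were tested, and 2 were higher (1.79%) and 2 lower (1.79%) in old samples, against 3.97% and 4.03% of all tested genes. Their median difference was 0.01. Tdg, the glycosylase that removes thymine from mispairs and acts in DNA demethylation, rose. It was 1.32, 1.22 and 1.54 in old samples and 0.54, 0.86 and 0.70 in young samples, a difference of 0.66 ± 0.13 (limma adjusted p = 0.0368). Of its 2 further probes one differed by 0.50 ± 0.14 and the other by 0.00086 ± 0.089, and neither passed. With the mean over its 3 probes the Tdg difference was 0.39 (limma adjusted p = 0.0797), so its call rests on the chosen probe. Gen1, a nuclease that resolves crossed recombination intermediates, rose by 0.41 ± 0.09, with 0.69, 0.60 and 0.80 in old samples and 0.27, 0.32 and 0.25 in young samples (limma adjusted p = 0.0428). Its call ended with cyclic loess (0.36, limma adjusted p = 0.0595) and with the deposited table (0.34, limma adjusted p = 0.0611).

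The other 2 that passed are DNA polymerases. Polm, a gap-filling polymerase of end joining, was 1.16, 1.32 and 1.23 in old samples and 1.63, 1.68 and 1.62 in young samples. It fell by 0.41 ± 0.08 log2 units (limma adjusted p = 0.0397). Polk, a polymerase that copies past bulky lesions, was -1.81, -1.63 and -1.88 in old samples and -1.10, -1.35 and -1.24 in young samples, and fell by 0.54 ± 0.11 (limma adjusted p = 0.0397). Its further probe gave 0.43 ± 0.33, and the mean over both probes was -0.05 (limma adjusted p = 0.881), so its direction rests on 1 probe. With normexp background correction the Polk difference was -0.20 (limma adjusted p = 0.148). All 4 calls ended when any 1 of the 6 samples was left out, at limma adjusted p of 0.0712 to 0.120, and the 4 differences kept their signs in those fits.

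Next in order of p within each pathway were genes that did not pass. Trp53, which encodes the p53 protein, was 1.28, 1.38 and 1.41 in old samples and 0.73, 1.11 and 0.69 in young samples, a difference of 0.51 ± 0.13 (limma adjusted p = 0.0691). With normexp background correction Trp53 passed as higher in old samples. Atrip, the partner of Atr, differed by 0.28 ± 0.10. In nucleotide excision repair Rad23b, the partner of Xpc, differed by 0.34 ± 0.09 (limma adjusted p = 0.0683) and Gtf2h4, a TFIIH subunit, by 0.32 ± 0.09 (limma adjusted p = 0.0786). Lig3, a ligase of single-strand break repair, differed by 0.44 ± 0.12 (limma adjusted p = 0.0807). Polh, a further bypass polymerase, differed by 0.39 ± 0.11 and Rev3l by -0.24 ± 0.08. Slx1b, a nuclease subunit, and Fancg, a subunit of the Fanconi core, differed by 0.35 ± 0.09 and -0.45 ± 0.12, and Rad51d by 0.24 ± 0.08.

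Rpa3, a subunit of the protein that coats single strands, was 5.12, 5.12 and 5.10 in old samples and 5.35, 5.37 and 5.35 in young samples, a difference of -0.25 ± 0.07 (limma adjusted p = 0.0913). Rpa3 passed and was lower in old samples with quantile normalization, cyclic loess, normexp and the deposited table. Pcna, the sliding clamp, differed by -0.25 ± 0.09 (limma adjusted p = 0.148). Parp3, a relative of Parp1, was not well above background on any old array. Its measured means were -4.93 in old and -3.32 in young samples, a difference of -1.61 ± 0.43 (limma adjusted p = 0.0763). The measured mean was thus 3.05-fold lower in old samples, which is an estimate from signals near background and not a lower bound. The glycosylase gene Neil1, well above background on 2 of 3 old arrays, differed by -0.68 ± 0.18 (limma adjusted p = 0.0774).

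Lists of other genes place these values beside the cell cycle and the blood lineages. Many repair genes are known to be made most in dividing cells. Of 30 tested DNA replication genes and 27 tested mitosis genes none passed, 1 and 2 had an unadjusted limma p below 0.05, and the medians were -0.05 and -0.02. The 3 replication genes with the smallest p were Chaf1b (0.21 ± 0.08), Gins3 (0.18 ± 0.08) and Gins2 (-0.23 ± 0.11). Of the 30 replication genes 23 had a negative and 7 a positive difference. Summed over the list, the replication signal was 1809 to 2016 times the 75th percentile in old samples and 1853 to 1978 in young samples, and the mitosis signal 946 to 1056 and 988 to 1051. The same sum over the 41 repair genes was 340 to 347 in old samples and 341 to 348 in young samples. Such a sum weighs the brightest genes most. The mean log2 signal of the 41 genes was 1.929, 1.876 and 1.854 in old samples and 1.935, 1.963 and 1.956 in young samples. That difference in the mean was not tested. Erythroid genes passed in 0 of 18, with 1 at an unadjusted limma p below 0.05 and a median of -0.02.

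Most white blood cell lists differed in the same samples. Leukocyte genes fell in 10 of 19, with a median of -1.24, among them Cytip (-1.77 ± 0.22, limma adjusted p = 0.0223). Their summed signal was 100 to 115 times the 75th percentile in old samples and 170 to 289 in young samples. B cell genes fell in 8 of 15 (median -2.33), neutrophil genes in 6 of 16 (median -1.22) and monocyte and macrophage genes in 7 of 10 (median -2.09). Their summed signals in old and young samples were 8.38 to 17.5 and 42.7 to 80.9 for B cells, 1363 to 1697 and 2029 to 3078 for neutrophils, and 10.4 to 15.4 and 25.8 to 56.5 for monocytes and macrophages. T cell genes went both ways, with 4 positive and 6 negative differences and a median of -0.94. Of the 10, 2 were higher (Cd3e, 0.80 ± 0.13, and Cd8a, 0.61 ± 0.13) and 1 was lower. Their summed signal was 20.1 to 23.6 in old samples and 16.7 to 20.9 in young samples. The median log2 signal of the list was instead lower in old samples, at -2.48 to -1.92 against -1.42 to -0.45 in young samples. Of the 13 tested stroma genes 1 was higher (Lepr, 1.02 ± 0.14) and 3 were lower, Cxcl12 among them (-2.40 ± 0.43). The stroma median was -1.22, while the summed signal was 103 to 121 in old samples and 82.5 to 98.5 in young samples. Of 6 tested endothelial genes 1 was higher (Kdr, 0.81 ± 0.16) and 0 were lower. Their differences, 4 positive and 2 negative, ran from -1.88 to 1.42 with a median of 0.27. The summed signal was 52.5 to 66.3 in old samples and 35.0 to 41.6 in young samples. The part of these cells in the repair gene values was not tested.

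**Figure D4:**
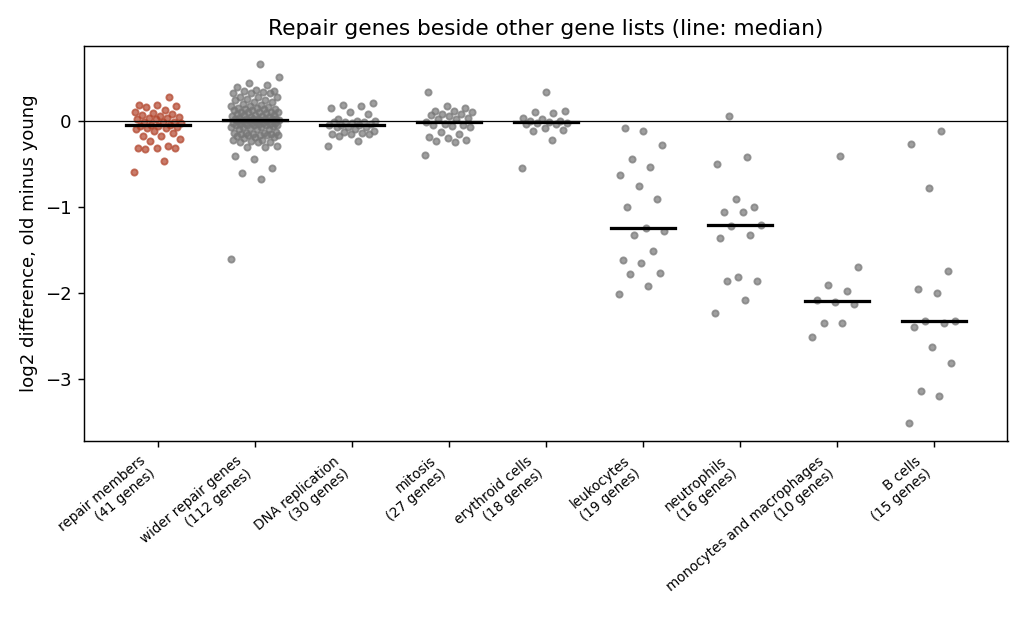
Log2 difference, old minus young, of every tested gene (points) in the repair list, the wider repair list and 7 other lists, with list medians as lines. The 41 repair genes lie between -0.59 and 0.28 around a median of -0.05, and the medians of the leukocyte, neutrophil, monocyte and B cell lists lie between -1.22 and -2.33.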

How the data were processed

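Total RNA of 6 samples was read on 6 arrays. Spot intensities were deposited by the authors as written by Agilent Feature Extraction (10.7.3.1 per the file headers, 10.5.1.1 per the submitters' processing notes), background-subtracted and detrended within each array, on a design annotated on mm9. The authors also deposited log2 values of 52095 probes, with column medians of 4.94, 4.92 and 4.87 for old and 4.91, 4.92 and 4.95 for young replicates 1 to 3. Set against the scanner intensity of the same array on the log2 scale, each column gave r = 0.9986 to 0.9995 over probes, which gives scale and direction. The method of scaling between arrays is unknown here.

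Control spots and outlier spots were left out, repeated spots were averaged, and log2 processed intensity minus the 75th percentile of the array was used. Accessions were named through a RefSeq table (GRCm38.p6). Genes entered the test if at least 3 of 6 arrays had their brightest probe well above background. The ages were compared by limma 3.58.1 (lmFit and eBayes without covariates, R 4.3.3) at a Benjamini-Hochberg adjusted p of 0.05. Python 3.11.15 and pandas 2.3.3 read the files. In simulated data of 23281 genes with 200 changed, 56.4% of changes of 1 log2 unit and 85.6% of 2 units were recovered, and 5.06% of calls were false. These changes were larger than any difference of a repair gene, and fewer genes changed than were called in the data. The simulated noise was normal and independent between genes. The rates therefore do not carry over to differences of the size seen in the repair genes. Only 6 arrays limit the precision.

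Alternatives covered scaling, background correction, the deposited values, the detection filter, the probe choice, the replicate number as a block and leaving out each sample. The files hold no mean signal, so normexp used the median signals with an offset of 50. Members and lists were chosen with earlier results of these data known. By rule every member is named, with values in every sample for any past the threshold and for the largest and smallest difference of each pathway. Of the wider list, genes past the threshold and up to 2 others per pathway by smallest p are named, and of the context lists up to 3, apart from some that are not reported here. Values in every sample of Xrcc2, Xrcc5, Xrcc6, Ercc3, Trp53 and Rpa3 were added after they were seen. Same-numbered samples did not deviate together (correlations of -0.03, 0.02 and -0.01), so the numbers were not taken as pairs.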

Additional observations from a re-analysis of the deposited data

How the results depend on the processing

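The 41 repair genes had no call under 12 of the 14 alternatives. With normexp background correction 3 were lower in old samples, namely Xpc (-0.53, limma adjusted p = 0.0331), Ercc3 (-0.35, 0.0484) and Chek2 (-0.34, 0.0348). With the deposited values 1 was lower, the chosen probe of Xrcc2 (-0.40, 0.0480). Over all tested genes 12.5% were called in either direction with normexp and 7.11% with the deposited values. With 1 value per gene no member was called higher under any alternative, but the second Xrcc2 probe was higher in the fit over single probes (0.68, limma adjusted p = 0.0438). Signs changed in 49 of 574 values, in 17 genes. Among these 17, Atm, Fancc, Xrcc2 and Nbn had a main difference above 0.1 in size. The first 3 changed sign with the mean over all probes of a gene alone (0.12, -0.22 and 0.18), and Nbn without old replicate 1 alone (-0.03). The median over the 41 genes was -0.10 to -0.02 under the alternatives. The wider list had 3 genes higher with normexp (Gen1, Tdg and Trp53), 1 with cyclic loess (Tdg), the deposited table (Tdg) and the mean over probes (Gen1), and 0 with no detection filter and with the replicate block. It had 4 lower with the deposited values (Rpa3, Polm, Aptx and Polk), 3 with quantile normalization and cyclic loess (Rpa3, Polm and Polk), 1 with the mean over probes (Polm), and 0 with no detection filter and with the replicate block. Over all genes 2910 passed with normexp, 0 without the detection filter (11662 at an unadjusted limma p below 0.05) and 0 with the replicate block (5565 unadjusted). Leaving out 1 sample gave 1 to 1154 calls over all genes, with 1 without old replicate 2, 5 without old replicate 3, 63 without young replicate 2, 322 without young replicate 3, 769 without young replicate 1 and 1154 without old replicate 1. In those 6 fits the wider list had 0 calls in either direction. The replicate numbers share only a label, and the replicate block changed no call of a repair gene (smallest limma adjusted p = 0.152). The cause of these changes was not tested. Signal over background did not limit the members, all of which were well above background on all 6 arrays.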
